A study of Mus musculus with 120 samples.

Results

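Lipid-associated macrophages take up and break down lipid and debris at sites of tissue remodelling, and 9 genes that mark them were followed in scaffold biopsies of autoimmune diabetes: *Trem2*, *Tyrobp*, *Apoe*, *Lpl*, *Fabp5*, *Gpnmb*, *Spp1*, *Lgals3* and *Cd9*. Members were the rows with these gene symbols in both count tables, 9 of 55487 shared genes, and each symbol was found once. The immunological niche (IN) is a porous polycaprolactone scaffold placed under the skin of the back, which host cells fill. Bulk RNA from whole INs was sequenced after ribosomal RNA depletion, in 120 samples. The 2 strains were NOD/ShiLtJ, which develops autoimmune diabetes, and NOR/LtJ, a related strain that does not, and all mice were female and received their first INs at 4 weeks of age. Progressors (P, 58 samples from 10 mice) were NOD mice that became hyperglycemic, biopsied at 6 weeks of age, at 7, 5, 3 and 1 weeks before onset (−7, −5, −3 and −1) and at onset. Nonprogressors (NP, 39 samples) were NOD mice that stayed normoglycemic, biopsied at 6, 10, 14, 18 or 22 weeks of age, apart from 6 samples labelled by days after implantation. NOR controls (23 samples from 5 mice) were biopsied at the same 5 ages. The paper describes 4 INs per mouse, exchanged in rotation after at least 2 weeks in place. An IN was removed each week and replaced by a fresh one, so the 6-week INs had been in place since the first surgery. The time in place of a later IN was not given per sample, and under the rotation it can be longer than that of the 6-week INs. Age and time in place therefore cannot be told apart in any comparison with 6 weeks of age.

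TREM2 is a lipid-sensing receptor of macrophages that signals through the adaptor TYROBP (DAP12), and its loss blunts the lipid-associated state in fat, brain and arteries. Cells in this state carry lipid-handling genes (*Apoe*, a lipid carrier, *Lpl*, which frees fatty acids from lipoprotein triglycerides, and *Fabp5*, a cytosolic fatty acid carrier). They also carry *Gpnmb*, a transmembrane glycoprotein linked to lysosomal stress, *Spp1*, which encodes secreted osteopontin, *Lgals3*, which encodes the sugar-binding galectin-3, and *Cd9*, a tetraspanin. Macrophages that fill implanted biomaterials are known to express several of these genes.

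*Trem2* lies at chr17:48346401-48354147, *Spp1* at chr5:104435118-104441050 and *Gpnmb* at chr6:49036546-49070929 (GRCm38, GENCODE annotation). Their RefSeq promoter windows are shown for the following reasons. *Trem2* kept its call for a rise after 6 weeks of age under every alternative fit in progressors and nonprogressors. *Lpl* also rose in both groups but had no window in the RefSeq table. *Spp1* moved in opposite directions in the 2 batches, and *Gpnmb* was the most abundant by counts. Each window runs 5′ to 3′ on the + strand of GRCm38.p6, from 250 bases before to 50 bases after the annotated start (chr17:48346151-48346450, chr5:104434861-104435160 and chr6:49036268-49036567). Capitals mark matches on either strand to GAGGAA (the core of PU.1 sites), TGACTCA (AP-1), CACGTG or CATGTG (E-box and M-box letters of the MITF and TFE family), and no matches overlapped.
Trem2: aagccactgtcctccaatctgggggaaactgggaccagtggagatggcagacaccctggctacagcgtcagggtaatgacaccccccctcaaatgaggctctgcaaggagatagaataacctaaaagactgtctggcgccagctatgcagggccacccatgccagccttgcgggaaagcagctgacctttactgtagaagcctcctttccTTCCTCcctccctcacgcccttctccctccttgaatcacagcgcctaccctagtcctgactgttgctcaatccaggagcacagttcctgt
Spp1: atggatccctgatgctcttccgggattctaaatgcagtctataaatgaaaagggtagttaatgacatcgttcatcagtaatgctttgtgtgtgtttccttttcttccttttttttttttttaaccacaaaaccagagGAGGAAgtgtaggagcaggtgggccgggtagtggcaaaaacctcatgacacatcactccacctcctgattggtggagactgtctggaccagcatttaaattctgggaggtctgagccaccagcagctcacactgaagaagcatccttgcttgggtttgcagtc
Gpnmb: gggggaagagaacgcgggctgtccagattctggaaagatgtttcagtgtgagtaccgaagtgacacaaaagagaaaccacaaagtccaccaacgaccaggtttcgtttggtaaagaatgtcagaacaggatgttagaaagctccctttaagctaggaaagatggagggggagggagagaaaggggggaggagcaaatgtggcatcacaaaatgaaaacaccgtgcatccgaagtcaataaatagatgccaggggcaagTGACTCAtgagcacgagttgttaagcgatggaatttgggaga
The *Trem2* window and the printed *Spp1* window each held 1 match to GAGGAA, which 28.3% of all 300-base promoter windows held. The *Gpnmb* window held 1 match to TGACTCA, which 5.2% of all windows held. Windows for 6 of the 9 members were in the RefSeq table (*Spp1*, *Gpnmb*, *Cd9*, *Apoe*, *Lgals3* and *Trem2*), 9 windows in all because *Spp1* and *Apoe* have more than 1 annotated start. The *Cd9* window held a match to CATGTG, present in 14.2% of all windows, and 0 of the 9 windows held CACGTG, which was present in 7.15% of all windows. These matches describe letters only.

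The libraries of batch 1 (74 samples) held 4722396 to 56185434 expected counts and those of batch 2 (46 samples) held 29029239 to 43880986. All NOR samples were in batch 1 and all −7 samples in batch 2. A single ribosomal RNA gene took 85.69% of the 18-week library of NOR mouse 5, and without it the counts of called members given below for NOR comparisons were the same, except for *Apoe* as stated there. Every member was counted in every library: the smallest count was that of *Tyrobp*, 52.0 in a library, and the median library held 12794 counts of *Trem2*. Macrophage markers were counted in every library, except *Fcgr1*, which was at 0 in 1 sample. Its median was 4.67 CPM (counts scaled to library size with TMM factors), while *Cd68* was at 408 to 1685 CPM and *Csf1r* at 330.0 to 757 CPM. Cells other than macrophages can express some members. Of 5 melanocyte markers, *Tyr*, *Tyrp1*, *Dct*, *Mlana* and *Pmel* were at 0 in 92, 71, 23, 8 and 2 of 120 samples, and *Dct* and *Pmel* reached 55.6 and 53.7 CPM in the highest sample. Medians of the adipocyte markers ran from 1.87 (*Lep*) to 40.9 CPM (*Cfd*), with *Adipoq* at 5.91 CPM. Those of the osteoclast-associated markers ran from 0.209 (*Calcr*) to 395 CPM (*Ctsk*), with *Acp5* at 256 CPM. Their part in the members’ levels was not tested. In bulk samples, fewer cells of a type and less RNA per cell cannot be told apart.

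The 9 genes together took a median of 2.19% of all counts in a library (0.159% to 3.24%). *Gpnmb* alone took a median of 1.23% and ranked between position 2 and 17 of all genes, with a median rank of 5. Per kilobase of exon, in batch 1, *Spp1* stood at 2132 ± 954 CPM per kb (mean ± SD, n = 74) and *Gpnmb* at 1974 ± 459, a pair that differed by less than their SD. *Lgals3* followed at 1514 ± 331, then *Apoe* at 667 ± 351, *Cd9* at 232 ± 47.8, *Tyrobp* at 201 ± 49.96 and *Lpl* at 146 ± 32.7 CPM per kb. *Trem2* (82.2 ± 17.3) and *Fabp5* (75.8 ± 23.7) were the lowest in that unit and differed by less than their SD. Exon length was the union of all annotated exons, 10478 bases for *Lpl*, 4946 for *Trem2*, 3567 for *Fabp5* and 667 for *Tyrobp*. The order between genes depends on these annotated lengths as well as on counts, and lengths of the expressed transcripts were not measured. In batch 2 the order was the same down to *Apoe* (264 ± 93.6, n = 46), with *Tyrobp* (210.1 ± 55.5) above *Cd9* (185 ± 38.2) and *Fabp5* (80.6 ± 22.2) above *Trem2* (71.3 ± 17.6). *Apoe* was the member that differed most between the batches. At the 7 combinations of group and time that both batches hold, its mean CPM in batch 1 was 1.67 to 2.88 times that in batch 2. The same ratio was 1.35 to 2.09 for *Lgals3* and 0.945 to 1.40 for *Trem2*, so levels are given within a batch throughout. *Spp1* overlaps *Gm42793*, an annotated transcript of the same strand, and *Cd9* overlaps the opposite-strand *Gm28809* and *Gm26728*, whose median counts per library (507, 29.0 and 27.5) were small beside those of *Spp1* and *Cd9*.

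**Figure D1:**
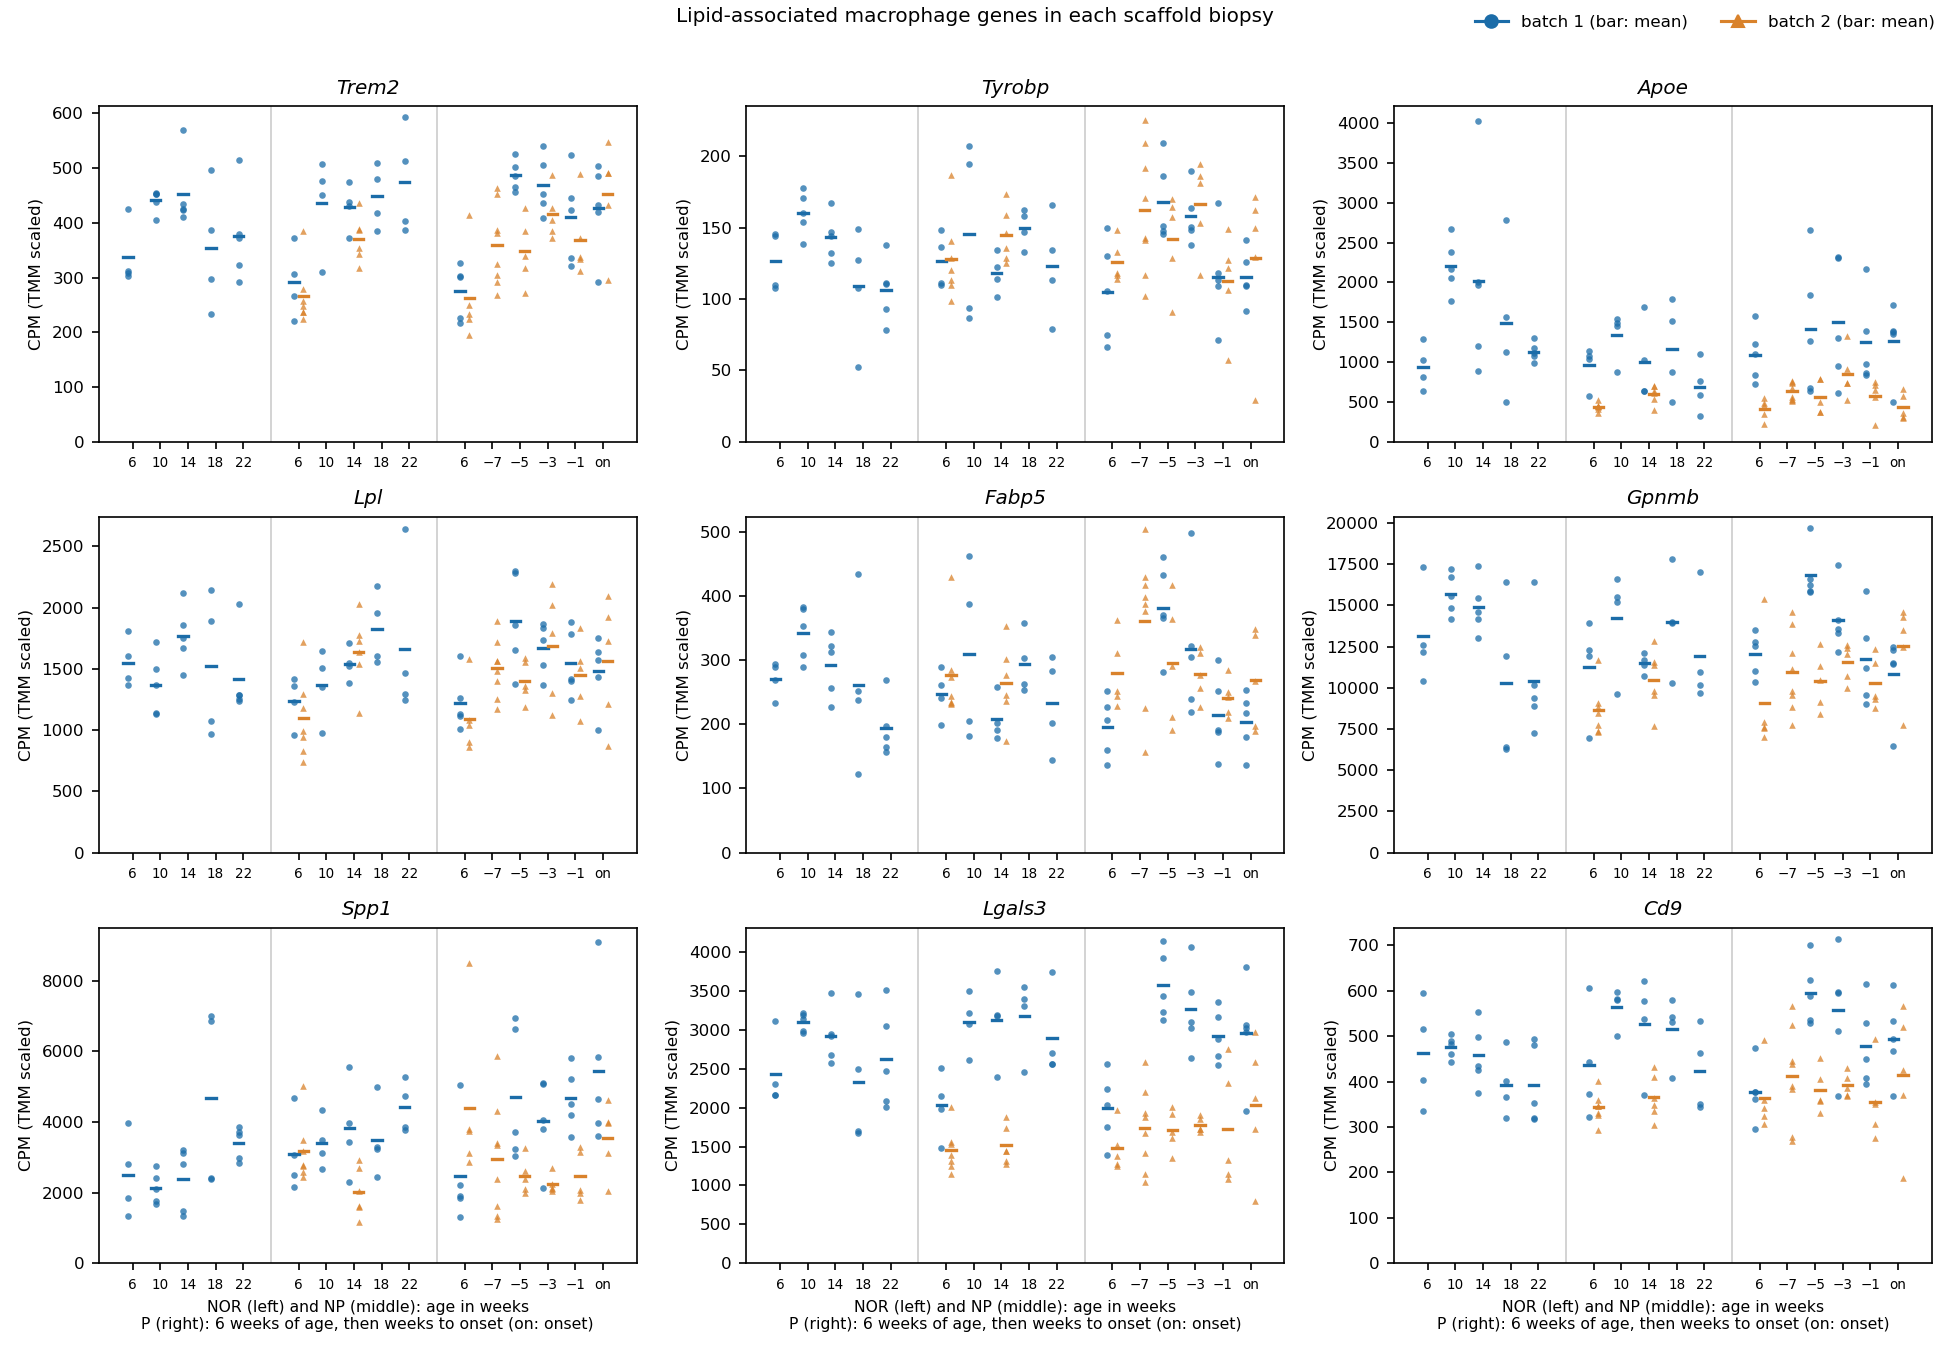
CPM (TMM scaled, linear axes from 0) of each of the 9 genes in all biopsies labelled by age or time to onset, by group and time, with batch 1 as circles, batch 2 as triangles and bars at the mean. *Trem2* in progressors at 6 weeks of age spanned 217 to 326 CPM in batch 1, and mean *Apoe* was higher in batch 1 than in batch 2 at each time that both hold.

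The first comparison asked how the genes moved from the earliest biopsy, at 6 weeks of age, to the last 5 weeks before onset in progressors. *Trem2* rose by a fold of 1.56, *Lgals3* by 1.38 and *Lpl* by 1.36, and the other 6 members did not pass the test. In batch 1, *Trem2* was at 217, 226, 301, 304 and 326 CPM in the 5 progressors at 6 weeks of age, and at 292 to 539.7 (median 454) in the 20 biopsies from −5 to onset. In batch 2 the 6-week values were 195, 224, 233, 251 and 414 CPM and the later ones 272 to 547 (median 385). All but 1 of the 10 6-week values lay below both later medians, and the exception was mouse 7 of batch 2. *Trem2* changed by a log2 fold of 0.64 (SE 0.10, adjusted p = 1.19e-06) (edgeR’s quasi-likelihood test with Benjamini-Hochberg adjustment, batch in the model). Within batch 1 it was 0.71 (SE 0.12, adjusted p = 0.000589) and within batch 2 0.58 (SE 0.15, adjusted p = 0.0035), and the later mean exceeded the 6-week value in 5 of 5 mice of batch 1 and 4 of 5 of batch 2. In all, 3 of 9 members were called, each higher, where 39.5% of all 21279 genes tested were called in either direction, so the share of members was close to that of all genes. Without the 6-week library of mouse 7 of batch 2, the highest of its group for 8 of 9 members, 5 of 9 were called, with *Cd9* at 0.36 (SE 0.12, adjusted p = 0.0121) and *Gpnmb* at 0.33 (SE 0.12, adjusted p = 0.025) added to the 3. That library was left out after its values were seen. Removing high 6-week values raises the change by itself, so the added calls are no separate evidence of a rise. The share of all genes called in that fit is not given here. With all libraries kept, the median log2 fold change was 0.27 over the members and 0.0095 over all genes.

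*Trem2*, *Lpl* and *Lgals3* were also the 3 members called in mice that stayed normoglycemic. In nonprogressors, *Trem2* was at 221, 267, 306 and 371 CPM at 6 weeks of age in batch 1 and at 311 to 593 (median 445) in the 16 biopsies from 10 to 22 weeks. In batch 2 it went from 225 to 386 (median 248) in 7 mice at 6 weeks to 318 to 436 (median 371) in 6 mice at 14 weeks. The ranges overlapped in each batch through the highest 6-week mouse. Its log2 fold change was 0.58 (SE 0.11, adjusted p = 2.50e-05) by the same test, and the blocked fit with the mouse as a term gave 0.57 (SE 0.12, adjusted p = 0.000783). Every nonprogressor with both times was higher later, 4 of 4 in batch 1 and 6 of 6 in batch 2. The smallest rise, in mouse 5 of batch 2, was from 386 to 387 CPM. *Trem2*, *Lpl* and *Lgals3*, 3 of 9 members, were all higher, against 27.6% of all 22722 genes called in either direction. With library totals in place of TMM scaling, which moved the median of all genes by −0.14, *Trem2* alone was called in nonprogressors, at 0.44 (SE 0.10, adjusted p = 0.000372). In NOR controls, *Trem2* was at 303, 309, 312 and 426 CPM at 6 weeks and 234 to 570.2 (median 423) in 19 later biopsies, a log2 fold change of 0.25 (SE 0.15, adjusted p = 0.805). By the same test 0 of 9 members passed in NOR, with 1 at an unadjusted p under 0.05 and 0 called by DESeq2, where 0.102% of all genes passed. The difference between the strains in this change was 0.37 (SE 0.21, adjusted p = 0.823) for *Trem2*, with a 95% interval of −0.042 to 0.78, and 0 of 9 members were called for it (0 at an unadjusted p under 0.05 and 0 by DESeq2), with 0.00% of all genes.

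**Figure D2:**
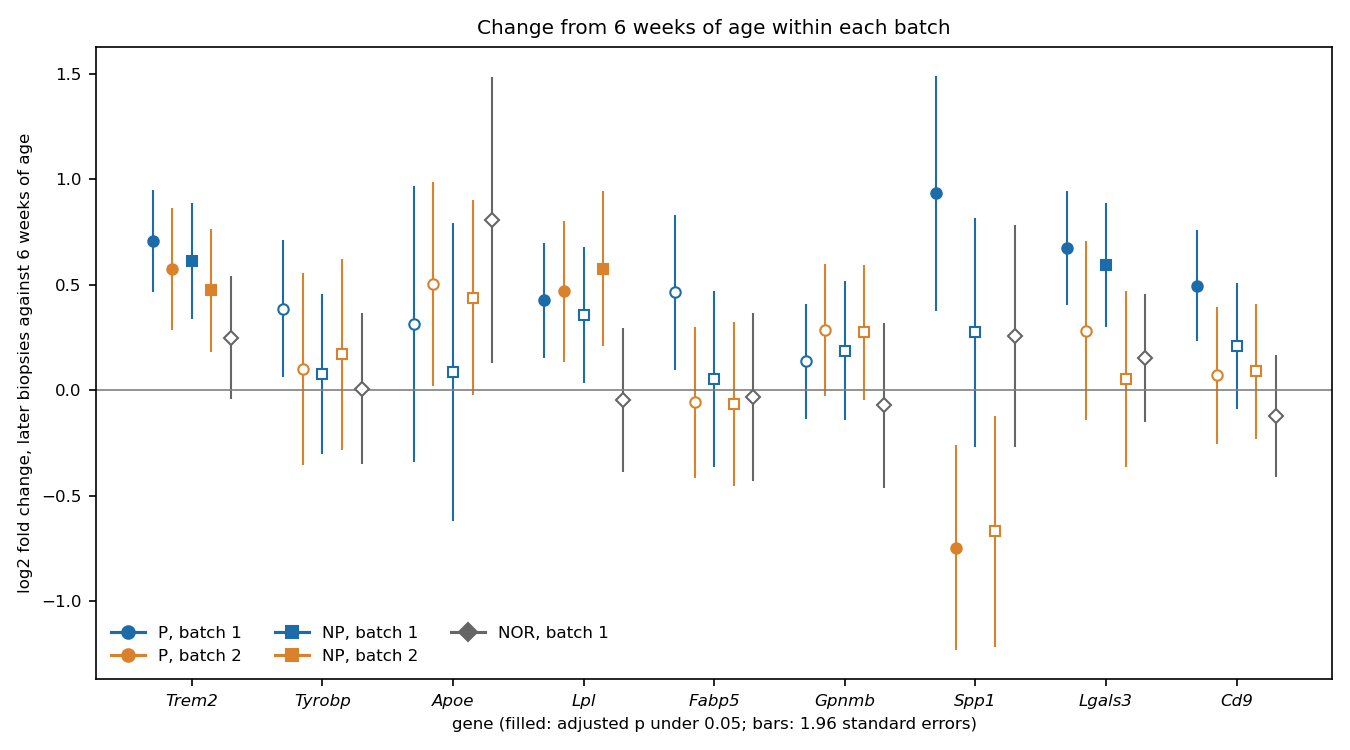
Log2 fold change of each gene from 6 weeks of age to the later biopsies, fitted within each batch (P: −5 weeks to onset; NP and NOR: 10 to 22 weeks, and 14 weeks in batch 2), with 1.96 standard errors as bars and filled symbols where the adjusted p was under 0.05. *Trem2* lay above 0 in all 5 series, and *Spp1* was at 0.93 in batch 1 progressors and at −0.75 in batch 2 progressors.

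*Tyrobp*, the signalling partner of TREM2, did not pass the test in these comparisons. It stood at 66.1, 74.9, 105, 130.0 and 149.7 CPM in progressors at 6 weeks in batch 1 and at 71.1 to 209.6 (median 143) later, and in batch 2 at 114, 117, 119, 133 and 148 and then 29.1 to 195 (median 149). The groups overlapped in both batches. Its log2 fold change was 0.24 (SE 0.15, adjusted p = 0.203) in progressors and 0.13 (SE 0.15, adjusted p = 0.559) in nonprogressors, by edgeR. The lowest *Tyrobp* value among the batch 2 progressors, 29.1 CPM, came from the onset biopsy of mouse 9, which was also the lowest of all samples in *Lgals3* and *Cd9*. Without that library, left out after its values were seen, the count of called members from 6 weeks to later was 4 of 9. Removing low later values raises the change by itself, and the share of all genes called in that fit is not given here.

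Of the lipid-handling members, *Lpl* rose in both NOD groups. In progressors of batch 1 it went from 1009.6, 1113, 1132, 1260.2 and 1600.5 CPM at 6 weeks to 1002 to 2301 (median 1645) later. In batch 2 it went from 863, 899, 1043, 1079 and 1583 CPM to 873 to 2189 (median 1529). The later median was above all 5 of the 6-week values in batch 1 and above 4 of 5 in batch 2. Nonprogressors went from 958, 1228, 1356 and 1415 CPM to 979 to 2644 (median 1534) in batch 1 and from 737 to 1716 (median 993) to 1137 to 2028 (median 1681) in batch 2. *Lpl* changed by a log2 fold of 0.45 (SE 0.11, adjusted p = 0.00113) in progressors and 0.43 (SE 0.13, adjusted p = 0.00736) in nonprogressors (edgeR’s quasi-likelihood test with Benjamini-Hochberg adjustment). In NOR controls *Lpl* was at 1366, 1425, 1604 and 1806 CPM at 6 weeks and 967 to 2147 (median 1447) later, and its change was −0.046 (SE 0.18, adjusted p = 0.995). Adipocytes and skeletal muscle also express *Lpl*. Of 8 adipocyte and 6 skeletal muscle markers, 0 passed the test in either NOD group by edgeR, 0 had an unadjusted p under 0.05 and 0 were called by DESeq2. The batches differed, however: in the test of the difference between batches in progressors, 8 of 8 adipocyte markers were called, with a lower change in batch 1 (median −6.19), and 0 of 6 skeletal muscle markers by edgeR (median −4.61, with 6 at an unadjusted p under 0.05 and 4 called by DESeq2). The summed skeletal muscle markers spanned 29.7 to 72101 CPM at 6 weeks and 131 to 28519 later in batch 1 progressors, and 59.6 to 584 and then 63.9 to 10865 in batch 2. The summed adipocyte markers spanned 20.7 to 612 CPM at 6 weeks and 15.6 to 1023 later in batch 1 progressors, and 12.2 to 27.1 and then 37.0 to 1028 in batch 2. In batch 2 nonprogressors they spanned 12.2 to 34.9 CPM at 6 weeks and 9.36 to 1177 at 14 weeks. In batch 2 progressors every later sum was above every 6-week sum. The correlation of *Lpl* with the adipocyte sum over samples was 0.043 in batch 1 and 0.52 in batch 2 (log2 scale, 74 and 46 samples that share mice and times), and the adipocytes’ part in the change of *Lpl* was not tested.

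*Apoe* and *Fabp5* did not pass the test in these comparisons. In batch 1 progressors *Apoe* was at 726, 833, 1096, 1225 and 1581 CPM at 6 weeks and at 503 to 2653 (median 1327) later. In batch 2 it was at 219, 352, 461, 489 and 546 CPM and then at 213 to 1324 (median 611). The later values enclosed the 6-week ones in both batches. The log2 fold change was 0.41 (SE 0.20, adjusted p = 0.108) in progressors, 0.12 (SE 0.21, adjusted p = 0.725) in nonprogressors and 0.81 (SE 0.35, adjusted p = 0.666) in NOR controls by edgeR. *Fabp5* was at 136, 159, 207, 227 and 251 CPM at 6 weeks and 137 to 499 (median 253) later in batch 1 progressors. In batch 2 it was at 229, 244, 252, 311 and 362 CPM and then 189.6 to 418 (median 262). Between −5 and onset, batch 1 values went from 281, 365, 369.9, 433 and 461 CPM to 137, 179.7, 217, 233 and 254 CPM without overlap, whereas the batch 2 values of 192, 211, 292, 364 and 418 and 189.6, 197, 268, 339.5 and 348 CPM overlapped. The log2 fold change of that step, for which 1.77% of all genes were called, was −0.90 (SE 0.23, adjusted p = 0.0822) within batch 1, −0.15 (SE 0.23, adjusted p = 0.743) within batch 2 and −0.56 (SE 0.18, adjusted p = 0.0816) with both batches (edgeR). It did not pass the threshold in any of the 3.

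*Spp1* moved in opposite directions in the 2 batches. In batch 1 progressors it was at 1316, 1849.8, 1909, 2222 and 5039.8 CPM at 6 weeks of age, and its mean was 4714 ± 1921 at −5, 4032 ± 1223 at −3, 4669 ± 876 at −1 and 5433 ± 2224 at onset (SD, n = 5 each). In batch 2 it was at 2855, 3116, 3747, 3794 and 8514 CPM at 6 weeks, and its mean was 2468 ± 505 at −5, 2249 ± 266 at −3, 2465 ± 705 at −1 and 3550.2 ± 993 at onset. In batch 1, 4 of the 5 6-week values lay below all but 1 of the later ones, while in batch 2 all 5 lay above the later median of 2309.8 CPM. The log2 fold change from 6 weeks was 0.93 (SE 0.28, adjusted p = 0.0194) within batch 1 and −0.75 (SE 0.25, adjusted p = 0.0227) within batch 2, and with both batches in 1 model it was −0.057 (SE 0.22, adjusted p = 0.862) (edgeR). The test of the difference between the batches, added after the values were seen, gave 1.68 (SE 0.39, adjusted p = 0.0133), and *Spp1* was the 1 member called of 9 where 4.61% of all genes were called. In the same test all 8 adipocyte markers, 2 of 7 osteoclast markers and 2 of 5 T cell markers were called in the opposite direction to *Spp1*. Without the 6-week library of mouse 7, the highest *Spp1* value of batch 2, the difference was 1.29 (SE 0.38, adjusted p = 0.0467). Without the 6-week library of mouse 5, whose skeletal muscle gene *Ttn* took the most counts, it was 1.64 (SE 0.42, adjusted p = 0.0574) and no longer past the threshold, as without every biopsy of mouse 3 of batch 1, 1.47 (SE 0.39, adjusted p = 0.0609). In nonprogressors the later *Spp1* level was higher in 3 of 4 mice of batch 1 and in 0 of 6 of batch 2. The 7 batch 2 nonprogressors were at 2438 to 5028 (median 2788) CPM at 6 weeks, and the 6 biopsied at 14 weeks were at 1171, 1584, 1616, 2033, 2689 and 2927 CPM. The difference between batches in the step from 6 to 14 weeks was 0.96 (SE 0.45, adjusted p = 0.255), and 0 of 9 members were called for it (edgeR, with 1 at an unadjusted p under 0.05 and 0 by DESeq2), against 0.533% of all genes. The summed adipocyte markers described with *Lpl* correlated with *Spp1* at −0.50 in batch 1 and −0.66 in batch 2, and the part of these cells in the *Spp1* change was not tested. Apart from the −7 samples, the batches held different mice and were sequenced apart, and mouse cohort and sequencing batch cannot be told apart.

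**Figure D3:**
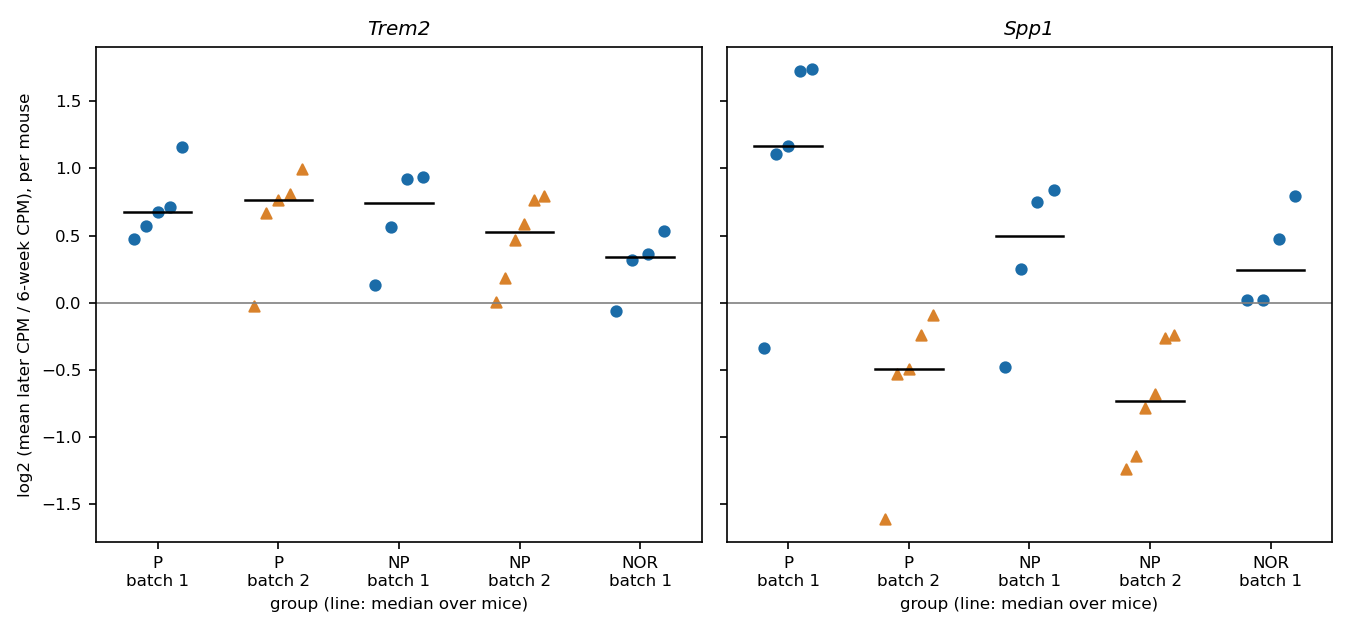
Log2 ratio of the mean CPM of the later biopsies to the 6-week CPM of the same mouse, for *Trem2* and *Spp1*, by group and batch (1 point a mouse, line at the median). *Spp1* lay below 0 in all 5 progressors and all 6 nonprogressors of batch 2, whereas *Trem2* lay above 0 in 5 of 5 progressors of batch 1 and 4 of 5 of batch 2.

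*Lgals3* rose in both NOD groups, and passed the test within batch 1 in each. Batch 1 progressors were at 1395, 1754, 2033, 2238 and 2561 CPM at 6 weeks and at 1955 to 4148 (median 3119) later. Batch 2 progressors were at 1244, 1279.5, 1379, 1525 and 1972 CPM and then at 795 to 2972 (median 1728). The log2 fold change in progressors was 0.47 (SE 0.14, adjusted p = 0.00524) with both batches, 0.67 (SE 0.14, adjusted p = 0.00179) within batch 1 and 0.28 (SE 0.22, adjusted p = 0.331) within batch 2 (edgeR’s quasi-likelihood test with Benjamini-Hochberg adjustment). The difference between the batches was 0.39 (SE 0.27, adjusted p = 0.411). In nonprogressors *Lgals3* went from 1482, 1986, 2154 and 2513 CPM to 2393 to 3752 (median 3188) in batch 1 and from 1143 to 2002 (median 1391) to 1273 to 1881 (median 1440.3) in batch 2. Its change there was 0.37 (SE 0.14, adjusted p = 0.0379) with both batches, 0.59 (SE 0.15, adjusted p = 0.00866) within batch 1 and 0.055 (SE 0.21, adjusted p = 0.878) within batch 2, and the fit with the mouse as a replicate block gave 0.35 (SE 0.17, adjusted p = 0.147). *Gpnmb* did not pass the test. It was at 10379, 11001, 12509, 12802 and 13494 CPM at 6 weeks in batch 1 progressors and at 6483 to 19704 (median 13203) later, and at 7019.7, 7562, 7606, 7931 and 15412 and then 7725 to 14580.0 (median 11401) in batch 2. Its log2 fold change was 0.21 (SE 0.11, adjusted p = 0.129) in progressors and 0.27 (SE 0.12, adjusted p = 0.0906) in nonprogressors. *Cd9* in batch 1 progressors was at 295, 361, 376, 377 and 473 CPM at 6 weeks and at 367 to 713 (median 531) later, and it passed the threshold within batch 1, 0.50 (SE 0.13, adjusted p = 0.00986), but not with both batches, 0.27 (SE 0.11, adjusted p = 0.0511). DESeq2 gave 0.27 (SE 0.11, adjusted p = 0.0444) for *Cd9* over both batches.

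In NOR controls the members other than *Trem2* and *Lpl*, described above, did not pass the test either. *Apoe* went from 637, 808, 1029 and 1286 CPM at 6 weeks of age to 503 to 4019.6 (median 1567) later and was the member at an unadjusted p under 0.05. *Spp1* went from 1348, 1853, 2809.5 and 3974 CPM to 1340.5 to 6997 (median 2816), where 2393, 2416, 6859.6 and 6997 CPM at 18 weeks held the highest pair of values. *Lgals3* was at 2158, 2164, 2308 and 3112 CPM at 6 weeks and at 1668 to 3515 (median 2952) later, a log2 fold change of 0.15 (SE 0.16, adjusted p = 0.909) by edgeR. *Gpnmb* was at 10386, 12170.0, 12579 and 17338 CPM and then at 6304 to 17389 (median 14193), and its 6 lowest NOR values were all at 18 or 22 weeks. Between 10 and 22 weeks the mean of *Fabp5* went from 343 ± 42.0 to 194 ± 44.7 CPM (SD, n = 5 each) and that of *Tyrobp* from 160.2 ± 15.2 to 106 ± 22.5, steps that were not tested. *Cd9* was at 335, 402, 517 and 596 CPM at 6 weeks and at 317 to 553 (median 442) later. The library rich in ribosomal RNA, at 18 weeks, held *Trem2* at 298, *Tyrobp* at 52.5 and *Fabp5* at 123 CPM.

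The second question was whether the genes separated mice by outcome. At 6 weeks of age, 0 of 9 members were called (0 at an unadjusted p under 0.05 and 0 called by DESeq2), where 0.00% of all genes were (edgeR, 10 progressors against 11 nonprogressors). *Trem2* differed by −0.056 (SE 0.13, adjusted p = 0.971), with an interval of −0.31 to 0.20 on the log2 scale, and *Spp1* by 0.12 (SE 0.25, adjusted p = 0.966), with an interval of −0.36 to 0.60. The change from 6 weeks to later did not pass a test of a difference between outcomes for any member. There, 0 of 9 members were called (0 at an unadjusted p under 0.05 and 0 called by DESeq2), where 0.00% of all genes were (edgeR). For *Trem2* the difference was 0.063 (SE 0.14, adjusted p = 0.996), with an interval of −0.21 to 0.33. For *Apoe* it was 0.28 (SE 0.29, adjusted p = 0.933), with an interval of −0.28 to 0.84. At onset against nonprogressors of 14 to 22 weeks, 0 of 9 members were called (1 at an unadjusted p under 0.05 and 0 called by DESeq2), where 2.76% of all genes were (edgeR). The member with the smallest p there was *Spp1*, higher at onset by 0.49 (SE 0.23, adjusted p = 0.269). Within batch 1 its difference was 0.49 (SE 0.25, adjusted p = 0.488) and within batch 2 0.80 (SE 0.30, adjusted p = 0.0598). With library totals, which moved the median of all genes by 0.14, *Spp1* was called at 0.61 (SE 0.21, adjusted p = 0.0424). Onset values of *Spp1* in batch 2, 2056, 3113, 3967, 3989 and 4626 CPM, overlapped those of the 6 nonprogressors of 14 weeks. In that comparison 3 of 4 melanocyte markers tested were called higher at onset (median 4.65, with 0 called by DESeq2), and 0 of 8 keratinocyte markers by edgeR (median 1.42, with 3 at an unadjusted p under 0.05 and 2 called by DESeq2). Their sums in batch 2 at onset spanned 0.491 to 177 CPM (median 0.902) and 12.4 to 1103 CPM (median 13.6), so the highest library stood far above the others, and their part in the *Spp1* difference was not tested.

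Along the time course of progressors, 3 of 9 members were called from 6 weeks of age to −7, all higher. Over all genes, 12.5% were called, in either direction. *Trem2* was at 268 to 463 (median 353) CPM in the 8 biopsies at −7, with a log2 fold change of 0.49 (SE 0.13, adjusted p = 0.0103). *Lpl*, at 1172 to 1887 (median 1523) CPM, changed by 0.44 (SE 0.15, adjusted p = 0.0442), and *Fabp5*, at 157 to 504 (median 393) CPM, by 0.55 (SE 0.19, adjusted p = 0.0498) (edgeR). All −7 biopsies were sequenced in batch 2, 4 of them from mice whose other biopsies were in batch 1. Without the 6-week library of mouse 5, *Trem2* alone was called, at 0.46 (SE 0.13, adjusted p = 0.0156). With the mouse as a replicate block, 0 members were called and *Trem2* was at 0.28 (SE 0.16, adjusted p = 0.339). Within batch 2 alone 0 members were called, with *Trem2* at 0.44 (SE 0.16, adjusted p = 0.054), *Lpl* at 0.46 (SE 0.19, adjusted p = 0.0836) and *Fabp5* at 0.36 (SE 0.21, adjusted p = 0.239). From −7 to the later times, 0 of 9 members were called (1 at an unadjusted p under 0.05 and 0 called by DESeq2), where 3.89% of all genes were (edgeR), and the member with the smallest p was *Fabp5*, at −0.36 (SE 0.16, adjusted p = 0.202). From −5 to onset, 0 of 9 members were called (2 at an unadjusted p under 0.05 and 0 called by DESeq2), where 1.77% of all genes were (edgeR), with *Fabp5* again at the smallest p.

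The last comparison set NOD against NOR mice, within batch 1. *Apoe* was lower in nonprogressors than in NOR controls, by a call that most alternatives did not keep. NOR controls were at 503 to 4019.6 (median 1286) CPM over 23 biopsies, and nonprogressors from 6 to 22 weeks were at 577, 1043, 1071 and 1142 CPM at 6 weeks and 329.6 to 1787 (median 953) later. At 10 weeks the NOR values, 1764, 2059.8, 2171, 2384 and 2675 CPM, lay above the 4 nonprogressor values, 874, 1447, 1492 and 1546. At 22 weeks the NOR values were 994, 1075, 1112, 1171 and 1307 CPM against 329.6, 583, 762 and 1097. In these 4 nonprogressor libraries *Rn7s2* took 12.8% to 30.5% of counts. The groups overlapped at 14 weeks, NOR at 894 to 4019.6 and nonprogressors at 632 to 1693 CPM. They also overlapped at 18 weeks, at 503 to 2784 and 501 to 1787 CPM. No single age passed the threshold, with adjusted p from 0.265 to 0.998 by edgeR. At 6 weeks the groups overlapped, with NOR at 637, 808, 1029 and 1286 CPM. The mean difference over the 5 ages was −0.55 (SE 0.18, adjusted p = 0.0499) (edgeR’s quasi-likelihood test with Benjamini-Hochberg adjustment), and *Apoe* was the 1 member called of 9 where 9.27% of all genes were called. Each of the 43 biopsies was a sample in that fit, with several from the same mouse. *Apoe* passed the threshold in 4 of 15 alternatives, with adjusted p from 0.0143 to 0.246. Without the ribosomal RNA-rich NOR library the adjusted p was 0.0507, without the 4 nonprogressor libraries of 22 weeks it was 0.108, and with the biopsies of each mouse summed it was 0.0143 (log2 fold change −0.66). With all NOD mice of batch 1 summed per mouse, 9 against 5, 0 of 9 members were called (3 at an unadjusted p under 0.05 and 2 called by DESeq2), where 8.98% of all genes were (edgeR). *Apoe* was at −0.47 (SE 0.15, adjusted p = 0.0604) and *Spp1*, higher in NOD, at 0.45 (SE 0.15, adjusted p = 0.0675). Both were called by DESeq2, at −0.46 (SE 0.15, adjusted p = 0.0234) and 0.46 (SE 0.14, adjusted p = 0.0187). For *Trem2*, *Lpl*, *Gpnmb* and *Lgals3* the differences were between −0.055 and 0.054, with an interval of −0.12 to 0.17 for *Trem2*. Of the 10 macrophage markers, 5 were lower and 0 higher in NOD in the summed comparison, and the 3 with the smallest p were the complement genes *C1qb* (−0.88), *C1qa* (−0.50) and *C1qc* (−0.53). In the comparison at matched ages, 7 of 8 keratinocyte markers were higher in nonprogressors (median 2.71, with 3 called by DESeq2) and 3 of 5 mast cell markers were lower (median −1.48). The part of these markers in the *Apoe* difference was not tested.

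Related genes were counted in the same comparisons with 6 weeks of age. In either direction, 39.5% of all genes were called in progressors and 27.6% in nonprogressors. Of 11 genes of lipid uptake, storage and efflux, 7 rose and 0 fell in progressors, and 5 rose and 0 fell in nonprogressors. Their median log2 fold change was 0.45 in progressors and 0.33 in nonprogressors, beside 0.0095 and −0.014 over all genes tested. The 3 with the smallest p in both groups were *Abca1* and *Abcg1*, which export cholesterol, and *Nceh1*, which hydrolyses cholesteryl esters. *Abca1* changed by 0.62 in progressors and 0.44 in nonprogressors, *Abcg1* by 0.64 and 0.52, and *Nceh1* by 0.59 and 0.42. Of 7 genes of TREM2 signalling and shedding, 5 rose in progressors (median 0.20), led by *Card9* (0.49) and the kinase *Syk* (0.29). In nonprogressors 3 rose, with *Card9* at 0.46 and *Syk* at 0.35, and 1 fell. Of 13 lysosome genes, 7 rose in progressors (median 0.25) and 4 in nonprogressors (median 0.18). *Npc1*, which exports cholesterol from lysosomes, changed by 0.35 and 0.24, and *Psap* by 0.45 and 0.39. Of 10 other markers of lipid-associated macrophages, 5 rose and 2 fell in progressors, and 3 rose and 2 fell in nonprogressors. The integrin *Itgax* rose by 0.80 in progressors and 0.65 in nonprogressors and the receptor *Clec7a* by 0.83 and 0.49, whereas the receptor tyrosine kinase *Axl* fell, at −1.08 and −0.87. Of the LPL partners and apolipoproteins, 0 of 5 passed in progressors and 0 of 6 in nonprogressors by edgeR (0 and 0 at an unadjusted p under 0.05, and 0 and 0 called by DESeq2).

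**Figure D4:**
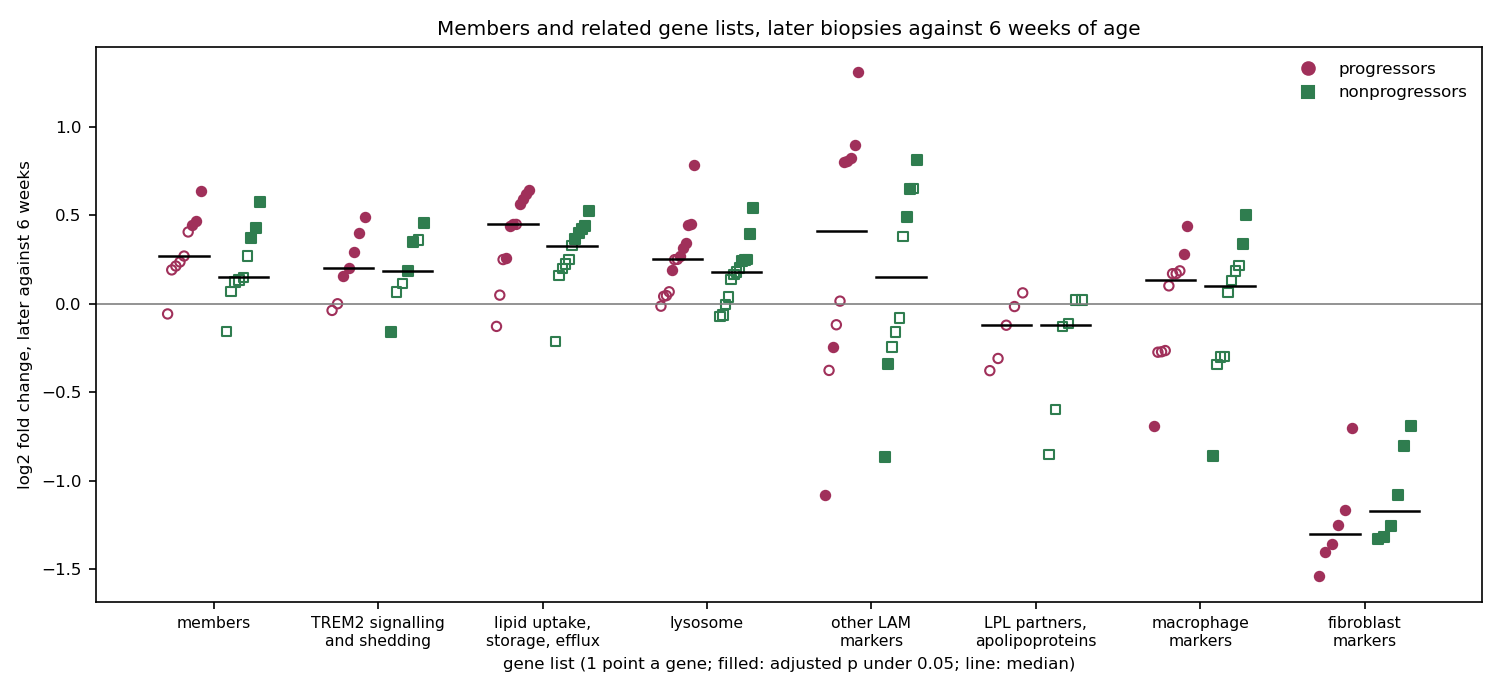
Log2 fold change from 6 weeks of age to the later biopsies of the 9 members and of 7 related gene lists, with progressors as circles and nonprogressors as squares (1 point a gene, filled where the adjusted p was under 0.05, line at the median). The median of the lipid uptake, storage and efflux genes was 0.45 in progressors and that of the fibroblast markers was −1.30.

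Markers of other cells moved with these changes. All 6 fibroblast markers fell in progressors (median −1.30) and all 6 in nonprogressors (median −1.17). Their summed level spanned 34031 to 63358 CPM at 6 weeks and 7120.1 to 33675 later in batch 1 progressors, and 28898 to 53222 and then 4349.7 to 26592 in batch 2. The correlation of *Trem2* with that sum was −0.70 in batch 1 and −0.69 in batch 2. Of 7 osteoclast markers, 1 rose and 4 fell in progressors and 0 and 4 in nonprogressors, and of 5 Schwann cell markers 3 fell in each. T and B cell markers rose, with 4 of 5 and 3 of 4 higher in progressors and 2 and 3 in nonprogressors. Of 8 keratinocyte markers, 8 fell in nonprogressors (median −2.91), whereas 1 rose and 1 fell in progressors (median 1.31). By the test of the difference between outcomes, 0 of these 8 were called by edgeR (median 3.52, with 6 at an unadjusted p under 0.05 and 1 called by DESeq2). Their sum in nonprogressors spanned 14.3 to 900.4 CPM (median 23.9) at 6 weeks and 10.8 to 198 (median 17.8) later in batch 1, and 12.8 to 36.0 (median 14.6) and then 6.13 to 57.8 (median 33.6) in batch 2. The part of these cells in the members’ changes was not tested. Of the 10 macrophage markers, 2 rose and 1 fell in both NOD groups. *Cd14* (0.28 in progressors and 0.34 in nonprogressors) rose and the Fc receptor *Fcgr1* (−0.69 and −0.86) fell. The summed macrophage markers spanned 2614 to 3463 CPM at 6 weeks and 2334 to 3911 later in batch 1 progressors, and 2176 to 2858 and then 2305 to 3539.7 in batch 2. Relative to the mean log2 CPM of the macrophage markers, *Trem2* was higher later by 0.77 and 0.59 in progressors (batches 1 and 2) and by 0.56 and 0.74 in nonprogressors, and by 0.05 in NOR controls. The same difference for *Lpl* was 0.48 and 0.45 in progressors, 0.28 and 0.86 in nonprogressors and −0.27 in NOR controls. For *Spp1* it was 1.08 in batch 1 progressors and −0.67 in batch 2. These are differences of group means with no test.

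The 9 genes did not vary as a single block across samples. Pearson correlations of log2 CPM within a batch describe samples that share mice, times and libraries. By the lower of the 2 values, *Lgals3* and *Cd9* were the closest pair, at 0.81 in batch 1 (n = 74) and 0.87 in batch 2 (n = 46), and *Trem2* and *Lgals3* stood at 0.90 and 0.73. *Trem2* and its adaptor *Tyrobp* stood at 0.53 and 0.40. *Tyrobp* was nearer to *Fabp5*, at 0.87 and 0.59. *Apoe* stood apart, at −0.06 and 0.047 with *Trem2* and at −0.55 and −0.45 with *Spp1*. Outside the 9 genes, the gene most like *Trem2* by the lower of its 2 within-batch correlations was *Ctsz*, which encodes the lysosomal protease cathepsin Z, at 0.88 in batch 1 and 0.90 in batch 2, followed by *Atf3* (0.88 and 0.87) and *Fuca1* (0.87 and 0.86). For *Gpnmb* it was *Rab7b* (0.88 and 0.93), then *Slc6a8* and *Ctsb*, and for *Lpl* the fatty acid receptor *Cd36* (0.78 and 0.80), then *Arhgap25* and *Daglb*. For *Spp1* it was *Gm42793*, which overlaps it on the same strand (0.84 and 0.82), then *Clec5a* (0.75 and 0.80) and *Bst1*. For *Apoe* the closest were *Skap1* (0.72 and 0.71), *Slco2b1* and *Acsf2*, and for *Tyrobp* *Micos13* (0.83 and 0.82), *1110008P14Rik* and *S100a1*. *Lgals3*, *Cd9* and *Fabp5* were closest to *Psmd8* (0.91 and 0.88), *Txn1* (0.80 and 0.91) and *Rilpl2* (0.79 and 0.88).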

How the data were processed

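Bulk RNA of 120 INs was measured. Per the submitters’ processing notes, reads passed through cutadapt, FastQC, STAR, RSEM and MultiQC on GRCm38, and the authors deposited RSEM expected counts per gene in a table for each batch, as whole numbers without normalization. Both tables were joined on 55487 shared Ensembl genes, and reporter rows were left out. Columns of per-sample values with no sample numbered 0.

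Groups, ages and mouse numbers came from the labels. Counts were tested with edgeR 4.0.16 (TMM, filterByExpr, quasi-likelihood F-test, Benjamini-Hochberg adjustment over all genes tested, threshold 0.05) in R 4.3.3, with batch as a term where both batches entered, and as an alternative with DESeq2 1.42.0. The test was also run on simulated counts, drawn independently with no effect of mouse or batch and with changes of 1 on the log2 scale. That run does not check p-values over repeated biopsies of 1 mouse, or smaller changes. Levels are CPM after TMM, or CPM per kb of the union of annotated exons (GENCODE M21). Error is the SD unless given as a standard error (SE). Intervals are 1.96 SE on either side. All NOD mice of batch 1 were compared with NOR on counts summed per mouse. Elsewhere each biopsy was a sample, also for nonprogressors against NOR at matched ages and for the difference between strains in the change with age. P-values then cover the spread between biopsies. The labels give several biopsies to 1 mouse, so the mouse as a replicate block was an alternative: deviations of same-mouse biopsies from their group means correlated at a median of 0.0073 over 208 pairs and at −0.0023 over 905 pairs of different mice. The smallest chi-square per degree of freedom between 2 replicates was 11.007 over 239 pairs, so every library was kept as its own sample. Other alternatives were no filter, library totals, single batches and left-out mice or libraries. All 9 members were named, with at most 3 called genes of smallest p per list and comparison, and the 3 genes most like each member. Members and lists were chosen with earlier results of these data known. Likeness is Pearson’s r of log2 CPM (prior count 2). Promoters came from a RefSeq table. Some marker genes of the lists are not reported here.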

Additional observations from a re-analysis of the deposited data

Results flagged for a closer look

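In groups of 4 to 10 samples, 19 of 207 pairs of group and gene held a sample whose gap to its nearest neighbour took more of the group’s range than Dixon’s 95% limit, where chance alone gives about 1 in 20 such pairs. The biopsy of nonprogressor mouse 5 at 6 weeks (batch 2) was the highest of its group for 8 of 9 members and stood past that limit for 4 of them, with *Trem2* at 386 CPM, the next sample being at 279, *Fabp5* at 429 (285), *Gpnmb* at 11687 (9078) and *Spp1* at 5028 (3486). The biopsy of progressor mouse 7 at 6 weeks (batch 2) was the highest of its group for 8 of 9 members and stood past that limit for 4 of them, with *Trem2* at 414 CPM, the next sample being at 251, *Gpnmb* at 15412 (7931), *Spp1* at 8514 (3794) and *Cd9* at 492 (359). The biopsy of NOR control mouse 4 at 6 weeks (batch 1) was the highest of its group for 6 of 9 members and stood past that limit for 2 of them, with *Trem2* at 426 CPM, the next sample being at 312 and *Lgals3* at 3112 (2308). The biopsy of nonprogressor mouse 1 at 22 weeks (batch 1) was the highest of its group for 7 of 9 members and stood past that limit for 2 of them, with *Lpl* at 2644 CPM, the next sample being at 1467 and *Lgals3* at 3744 (2697). *Trem2* was highest in NOR control mouse 2 at 14 weeks (batch 1), at 570.2 CPM beside 434 in the nearest sample. *Lpl* was highest in NOR control mouse 4 at 22 weeks (batch 1), at 2026 CPM beside 1289 in the nearest sample. *Apoe* was lowest in nonprogressor mouse 2 at 10 weeks (batch 1), at 874 CPM beside 1447 in the nearest sample. *Gpnmb* was highest in progressor mouse 2 at −5 (batch 1), at 19704 CPM beside 16623 in the nearest sample. *Spp1* was highest in progressor mouse 4 at 6 weeks (batch 1), at 5039.8 CPM beside 2222 in the nearest sample. *Gpnmb* was lowest in progressor mouse 2 at onset (batch 1), at 6483 CPM beside 11418 in the nearest sample. *Spp1* was highest in progressor mouse 7 at −3 (batch 2), at 2709 CPM beside 2233 in the nearest sample. The change of *Spp1* from 6 weeks of age to the last 5 weeks before onset differed between the batches of progressors by 1.68 on the log2 scale (edgeR’s quasi-likelihood test of the interaction, adjusted p = 0.0133). *Spp1* was higher later than at 6 weeks in 4 of 5 mice of batch 1 and 0 of 5 of batch 2. In NOR controls, all in batch 1, it was higher later in 4 of 4 mice, but by a log2 ratio of only 0.021 in mouse 2 and 0.020 in mouse 4. The fitted change of *Spp1* in NOR controls was 0.26 (SE 0.27, adjusted p = 0.911) by edgeR.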

How the results depend on the processing

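By DESeq2, the number of members called was 2 in place of 0 for NOD against NOR. Without a filter on low counts, the number of members called was 0 in place of 1 for nonprogressors against NOR at matched ages and 1 in place of 3 for −7 against 6 weeks. With library totals in place of TMM, the number of members called was 0 in place of 1 for nonprogressors against NOR at matched ages, 1 in place of 3 for nonprogressors later than 6 weeks and 1 in place of 0 for onset against nonprogressors. Without the NOR 18-week library of mouse 5, the number of members called was 0 in place of 1 for nonprogressors against NOR at matched ages. Without the nonprogressor 22-week libraries, the number of members called was 0 in place of 1 for nonprogressors against NOR at matched ages. Without the batch term, the number of members called was 5 in place of 3 for nonprogressors later than 6 weeks. Within batch 2, the number of members called was 0 in place of 3 for −7 against 6 weeks. With the mouse as a replicate block, the number of members called was 0 in place of 3 for −7 against 6 weeks. Without the progressor 6-week library of mouse 5, the number of members called was 1 in place of 3 for −7 against 6 weeks and 0 in place of 1 for the batch difference in progressors. Within batch 1, the number of members called was 5 in place of 3 for progressors later than 6 weeks. Without the progressor 6-week library of mouse 7, the number of members called was 5 in place of 3 for progressors later than 6 weeks. Leaving out each mouse in turn, the number of members called was 0 to 1 for NOD against NOR, 0 to 1 for nonprogressors against NOR at matched ages and 0 to 1 for the batch difference in progressors, and 0 each time for progressors against nonprogressors at 6 weeks, for later against 6-week NOR INs and for the difference between strains in the change with age. No called member changed direction under any alternative run. *Trem2* kept its call in 10 of 10 alternatives for progressors and 9 of 9 for nonprogressors, *Lpl* in 10 of 10 and 7 of 9, and *Lgals3* in 9 of 10 and 5 of 9. The remaining calls were kept as follows: *Apoe* against NOR in 4 of 15, at −7 *Trem2* in 6 of 8, *Fabp5* in 4 of 8 and *Lpl* in 3 of 8, and the *Spp1* difference between batches in 12 of 14. The mouse as a replicate block also left *Lgals3* short of the threshold in nonprogressors (adjusted p = 0.147 by edgeR), where 2 of the 3 members stayed called, and it changed no other call. The alternatives that leave out named libraries other than the 18-week NOR one, and both tests between batches, were chosen after seeing the data. The cause of these changes was not tested, and the within-batch and left-out fits hold fewer samples. P-values over biopsies treat repeated biopsies of 1 mouse as separate samples unless the mouse was a block. No NOR sample was in batch 2, so no NOR result has a check in a second batch.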

Other observations

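In nonprogressors, 6 samples carried a label of days since implantation in place of an age and entered no comparison. *Trem2* was at 373 and 397 CPM at 31 days, 354 and 379.5 CPM at 38 days, 398 and 407 CPM at 108 days. *Apoe* was at 2785 and 3083 CPM at 31 days, 1653 and 2471 CPM at 38 days, 2848 and 2913 CPM at 108 days, beside 577 to 1142 in nonprogressors at 6 weeks and 329.6 to 1787 at 10 to 22 weeks in the same batch. *Spp1* was at 1598 and 2078 CPM at 31 days, 2135 and 2702 CPM at 38 days, 1664 and 1946 CPM at 108 days. Over the 6 samples the CPM range was 146 to 188 for *Tyrobp*, 1232 to 1701 for *Lpl*, 299 to 363 for *Fabp5*, 10775 to 13663 for *Gpnmb*, 2249.9 to 2693 for *Lgals3* and 421 to 502 for *Cd9*.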
